A study of Homo sapiens with 4 samples.

Results

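The D-type cyclins and the cyclin-dependent kinase (CDK) inhibitors set the activity of the kinases that take cells from G1 into S phase. Their genes were followed from the breast cancer cell line MDA-MB-231 to LM2-4175, a line isolated from it. The 10 members were taken by gene symbol from the 57815 genes of the deposited table, in which each symbol had 1 row. They were the D-type cyclin genes CCND1, CCND2 and CCND3, the CIP/KIP inhibitor genes CDKN1A, CDKN1B and CDKN1C, and the INK4 inhibitor genes CDKN2A, CDKN2B, CDKN2C and CDKN2D. CDKN1A rose and CDKN2C fell in LM2-4175, CCND1 was the highest member in both cell lines, and CDKN2A and CDKN2B were near 0 in both.

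D-type cyclins are made in response to growth factors and bind CDK4 or CDK6, and the complex phosphorylates the retinoblastoma protein RB1, which then releases E2F transcription factors. INK4 proteins bind CDK4 and CDK6 directly and keep the cyclin away. CIP/KIP proteins bind cyclin-CDK complexes more broadly, inhibit CDK2, and also help cyclin D and CDK4 to assemble. High levels of cyclin D1 are common in breast cancer, and INK4 genes are lost in some breast cancers.

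MDA-MB-231 is an established triple-negative breast cancer cell line, and LM2-4175 was selected from it for metastasis to the lung. Both were grown in DMEM with 10% FBS without treatment, and total RNA of each was sequenced as 2 libraries, 4 in all. The authors combined the 2 libraries of a cell line into 1 FPKM per gene, a fragment count scaled for transcript length and sequencing depth. They gave it bounds below and above, and whether these cover the spread between the libraries is not given in the sources used here. With no value per library, no replicate error could be worked out and no p-value was computed. LM2-4175 stands for 1 selected derivative, and a difference between the cell lines cannot be told apart from one between the cultures that were harvested. The mesenchymal markers VIM, CD44, AXL and CAV1 ranged from 402.1 to 1355 FPKM in MDA-MB-231 and from 151.1 to 1768 FPKM in LM2-4175. CAV1, a gene of caveolae, was called lower by the rule given in the next paragraph, from 587.3 to 151.1 FPKM. Of the epithelial markers, EPCAM was called lower, from 12.26 to 4.93 FPKM, while CDH1 was at 0.851 and 0.366 FPKM and ESRP1 at 0.144 and 0.439 FPKM without a call. ESR1 and PGR were at most 0.0331 FPKM in both cell lines, while ERBB2, the third receptor gene, was at 34.95 and 22.76 FPKM. Markers of other cell types summed to 0.561 and 0.432 FPKM over the 6 that were listed.

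A gene was tested where its mean over the cell lines was at least 0.5 FPKM, and its change is the log2 of FPKM + 1 in LM2-4175 minus that in MDA-MB-231, where low genes appear to change less than they do. Ranges in parentheses after an FPKM are its bounds. A call required a 1.5-fold change or more and bounds of the 2 cell lines that were apart. By this rule 9.27% of 13911 genes were called, 4.67% higher and 4.61% lower in LM2-4175. The bounds alone were apart for 9.39%. Of the 10 members, 7 were tested, 2 of them were called and 3 were below the filter. With so few members, no difference from the share of all genes can be read from these counts. The levels of the 10 genes are drawn with their bounds in the plot of levels.

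**Figure D1:**
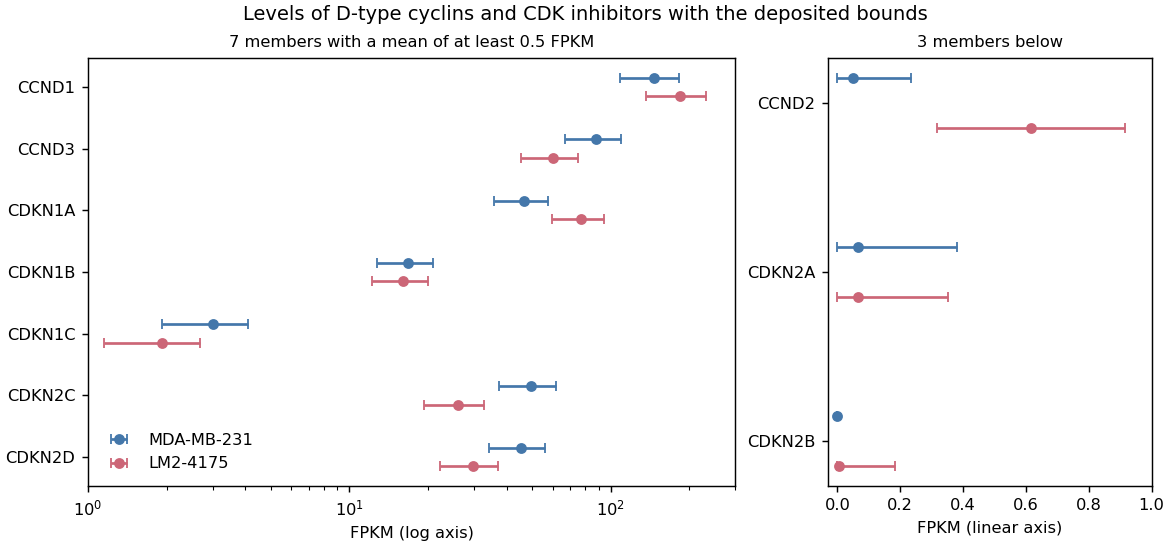
FPKM of the 10 members in MDA-MB-231 (blue) and LM2-4175 (red), on a log axis for the 7 members with a mean of at least 0.5 FPKM and on a linear axis for the other 3. Points are the deposited values and bars the deposited bounds, and the bars of the cell lines are apart for CDKN1A, CDKN2C and CCND2.

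The sequences before 1 start site of each of the 2 members that were called are shown. These windows differ in base composition, and a relation of this to the direction of the changes was not tested. Each is the 250 bases before a RefSeq start that is also the start of the canonical GENCODE transcript, written 5′ to 3′ on the plus strand, and each was found once on its chromosome of GRCh37. Capitals mark GC boxes (GGGCGG) and E-boxes (CACGTG), searched on both strands.
CDKN1A, chr6:36646241-36646490: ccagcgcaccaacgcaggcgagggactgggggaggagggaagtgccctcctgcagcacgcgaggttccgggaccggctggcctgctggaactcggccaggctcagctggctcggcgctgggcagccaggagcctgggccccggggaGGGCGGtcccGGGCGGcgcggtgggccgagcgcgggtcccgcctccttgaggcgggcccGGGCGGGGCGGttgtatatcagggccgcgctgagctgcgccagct
CDKN2C, chr1:51435667-51435916: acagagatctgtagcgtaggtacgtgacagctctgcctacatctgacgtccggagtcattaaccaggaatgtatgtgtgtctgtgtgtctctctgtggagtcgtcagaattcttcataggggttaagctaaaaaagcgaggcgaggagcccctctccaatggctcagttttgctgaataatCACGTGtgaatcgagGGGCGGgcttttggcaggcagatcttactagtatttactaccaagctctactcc
The CDKN1A window had a GC content of 76.4% and 4 GC boxes, of which the last 2 share a base. The CDKN2C window had a GC content of 48.8%, 1 GC box and 1 E-box. In 35116 RefSeq windows of the same length, 42.6% held a GC box and 6.34% an E-box. Neither window held TATAAA, present in 10.7% of all windows, or the E2F motifs TTTCCCGC and TTTGGCGC, of which at least 1 was present in 1.93%. Both windows lie inside the annotated spans of their genes, since other transcripts start further upstream. The CDKN1A window has 4 bases in exons of the gene. The CDKN2C window has none and lies after 2 of the 3 RefSeq starts of this gene, and the table does not separate transcripts by start. These matches describe the letters of the windows and no binding was measured in this table.

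The D-type cyclins were the most abundant family and changed least as a sum, from 234.2 to 245.3 FPKM. CCND1 (ENSG00000110092, chromosome 11 of GRCh37, 69455924 to 69469242, plus strand), the cyclin D gene most often amplified in breast cancer, stood at 146.0 FPKM (108.9 to 183.1) in MDA-MB-231. In LM2-4175 it stood at 184.3 FPKM (137.1 to 231.4). LM2-4175 had the larger value, the bounds overlapped, and CCND1 was not called (log2 change 0.33). Only 666 of the 57815 genes were at or above CCND1 in MDA-MB-231, and 442 in LM2-4175, each count with CCND1 itself. LTO1, on the other strand, shares 10.4% of the exonic sequence of CCND1. Whether the authors counted by strand is not given in the sources used here, so the reads of such genes cannot be told apart.

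CCND3 (ENSG00000112576, chromosome 6, 41902672 to 42018095, minus strand), the family member best known for its part in lymphocytes, was at 88.14 FPKM (66.77 to 109.5) in MDA-MB-231 and at 60.35 FPKM (45.58 to 75.13) in LM2-4175. Its value was smaller in LM2-4175, with a log2 change of -0.54 and overlapping bounds, and it was not called. As CCND1 and CCND3 had differences of opposite sign, the share of CCND1 in the summed D-type cyclins went from 62.3% in MDA-MB-231 to 75.1% in LM2-4175. The ratio of CCND1 to CCND3 was 1.66 in MDA-MB-231, where the bounds of both genes overlapped, and 3.05 in LM2-4175, where they did not. The overlap in MDA-MB-231 was narrow, from a lower bound of 108.9 FPKM for CCND1 to an upper bound of 109.5 FPKM for CCND3. The share and the ratio carry no error and rest on 2 genes that were not called.

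CCND2 (ENSG00000118971, chromosome 12, 4378937 to 4414519, plus strand), often silenced in breast cancer, was low at 0.0507 FPKM (0 to 0.233) in MDA-MB-231. In LM2-4175 it was at 0.615 FPKM (0.316 to 0.915). The bounds were apart with the larger value in LM2-4175, but the mean of 0.333 FPKM was below the filter and CCND2 was not tested. Without the filter it was called higher, with a log2 change of 0.62 that became 2.25 with a pseudocount of 0.1. Even in LM2-4175, CCND2 made up little of the summed D-type cyclins beside CCND1 and CCND3. Other genes, CCND2-AS1 on the other strand among them, share 13.8% of its exonic sequence.

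CDKN1A (ENSG00000124762, chromosome 6, 36644237 to 36655114, plus strand) encodes p21, an inhibitor that halts the cell cycle after DNA damage. Its level rose from 46.76 FPKM (35.72 to 57.81) in MDA-MB-231 to 76.97 FPKM (59.46 to 94.47) in LM2-4175. It was called higher, with bounds apart, a log2 change of 0.71 and a ratio of 1.65. Among all genes tested, 7.99% had a change at least as large in this direction. A difference in RNA per cell cannot be told apart from one in the number of cells that express the gene. DINOL on the other strand shares 4.87% of its exonic sequence. With a threshold of 2-fold CDKN1A was not called.

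The other 2 CIP/KIP genes were lower in level than CDKN1A in both cell lines. CDKN1B (ENSG00000111276, chromosome 12, 12838432 to 12875303, plus strand) encodes p27, an inhibitor that accumulates in resting cells and is controlled largely through its degradation. It was at 16.84 FPKM (12.74 to 20.94) in MDA-MB-231 and at 16.11 FPKM (12.18 to 20.04) in LM2-4175. This was the smallest difference among the members tested, with a log2 change of -0.06 that turned to 0.02 when both cell lines were scaled to the same FPKM sum. CDKN1C (ENSG00000129757, chromosome 11, 2904443 to 2907005, minus strand), an imprinted gene that encodes p57, was at 3.002 FPKM (1.92 to 4.08) and 1.92 FPKM (1.15 to 2.70). Its bounds overlapped and the log2 change of -0.45 was not called. The summed CIP/KIP genes were at 66.60 FPKM in MDA-MB-231 and 95.00 FPKM in LM2-4175, and CDKN1A held 70.2% and 81.0% of these sums.

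The INK4 inhibitors went the other way, with a sum of 95.03 FPKM in MDA-MB-231 and 55.70 FPKM in LM2-4175. Nearly all of this came from 2 genes. CDKN2C (ENSG00000123080, chromosome 1, 51426417 to 51440306, plus strand), which encodes p18, fell from 49.74 FPKM (37.56 to 61.93) to 25.98 FPKM (19.27 to 32.69). The bounds were apart and CDKN2C was called lower, with a ratio of 0.522 and a log2 change of -0.91. A decrease at least as large was seen in 4.94% of the genes tested. An unnamed lncRNA gene on the other strand, which the deposited table does not list, shares 20.4% of its exonic sequence. As for CDKN1A, the call was lost with a threshold of 2-fold.

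CDKN2D (ENSG00000129355, chromosome 19, 10677136 to 10679735, minus strand), which encodes p19, was at 45.22 FPKM (34.33 to 56.11) in MDA-MB-231 and at 29.66 FPKM (22.20 to 37.12) in LM2-4175. The log2 change of -0.59 was past 1.5-fold but the bounds overlapped, so CDKN2D was not called. It was called lower when the fold alone was used, a rule by which 22.1% of all genes were called. CDKN2C and CDKN2D stood at nearly the same level within each cell line, with overlapping bounds and CDKN2C at 1.10 times CDKN2D in MDA-MB-231 and 0.876 times in LM2-4175.

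CDKN2A (ENSG00000147889, chromosome 9, 21967751 to 21995300, minus strand) encodes p16 and, from another reading frame, ARF, a tumour suppressor of its own. MDA-MB-231 had 0.0664 FPKM (0 to 0.381) of it and LM2-4175 0.0647 FPKM (0 to 0.351). The lower bound was 0 in both cell lines, so CDKN2A was not distinguished from 0 in either. CDKN2B-AS1 on the other strand shares 15.3% of its exonic sequence. CDKN2B (ENSG00000147883, chromosome 9, 22002902 to 22009304, minus strand), which encodes p15 and is induced by TGF-beta in epithelial cells, was listed at 0 in MDA-MB-231. In LM2-4175 it was at 0.00498 FPKM (0 to 0.182). An exact 0 in this table can be a failed estimate, though only 8 of the 57815 genes had a quantification status other than OK. No ratio is given for CDKN2B.

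The genes beside them were also near 0. MTAP, a gene of methionine salvage that most cells use, lies next to CDKN2A and was at 0.0768 FPKM (0 to 0.351) in MDA-MB-231 and at 0.110 FPKM (0 to 0.418) in LM2-4175. CDKN2B-AS1, the antisense RNA gene ANRIL, and DMRTA1 were both listed at 0 for MDA-MB-231. In LM2-4175, CDKN2B-AS1 was at 7.11e-05 FPKM and DMRTA1 was again listed at 0. Of the 22 protein-coding genes of the table within 1 Mb of CDKN2A, 18 were listed at 0 in both cell lines, most of them interferon genes that resting cells do not use. Only FOCAD at the far end of this window was tested, with 0.916 and 1.29 FPKM and no call. MDA-MB-231 is known as a line with a homozygous deletion at this locus, but the table holds no DNA copy number and its part in these values was not tested.

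Within MDA-MB-231 the levels ran from CCND1 through CCND3, CDKN2C, CDKN1A, CDKN2D, CDKN1B and CDKN1C to CDKN2A, CCND2 and CDKN2B. In LM2-4175 the order was CCND1, CDKN1A, CCND3, CDKN2D, CDKN2C, CDKN1B, CDKN1C, CCND2, CDKN2A and CDKN2B. Of the 9 neighbouring pairs in each order, 5 had overlapping bounds. In MDA-MB-231, CDKN2C, CDKN1A and CDKN2D formed a run whose neighbours did not differ beyond their bounds. In LM2-4175, CDKN1A did not differ beyond the bounds from CCND3, and CDKN2D, CDKN2C and CDKN1B formed the next such run. The ends of this last run were apart, with a lower bound of 22.20 FPKM for CDKN2D and an upper bound of 20.04 FPKM for CDKN1B. CDKN1A stood at 0.940 times CDKN2C in MDA-MB-231 and at 2.96 times CDKN2C in LM2-4175.

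**Figure D2:**
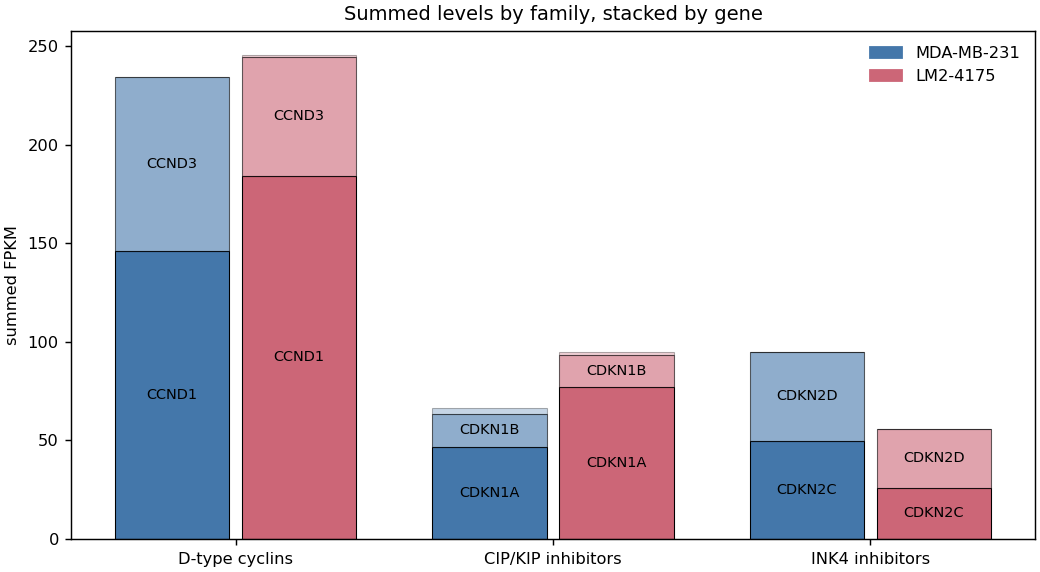
Summed FPKM of the D-type cyclins, the CIP/KIP inhibitors and the INK4 inhibitors in MDA-MB-231 (blue) and LM2-4175 (red), stacked by gene, with no error bars because the sums have none in the table. The INK4 bar is the taller of the inhibitor bars in MDA-MB-231 (95.03 against 66.60 FPKM) and the CIP/KIP bar in LM2-4175 (95.00 against 55.70 FPKM).

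The plot of summed levels shows that the inhibitors changed in make-up more than in total. All 7 inhibitor genes together were at 161.6 FPKM in MDA-MB-231 and 150.7 FPKM in LM2-4175. The ratio of CIP/KIP to INK4 sums went from 0.701 in MDA-MB-231 to 1.71 in LM2-4175, and CDKN1A held 28.9% and 51.1% of all inhibitor FPKM. Relative to the summed D-type cyclins, the summed inhibitors were at 0.690 and 0.614. These are ratios of RNA levels per length and carry no error.

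The kinases that D-type cyclins bind were not called. CDK4 was at 195.7 FPKM (136.9 to 254.6) in MDA-MB-231 and at 185.4 FPKM (128.6 to 242.2) in LM2-4175. TSPAN31 on the other strand shares 44.2% of the exonic sequence of CDK4. CDK6 was lower in level, at 17.10 FPKM (12.22 to 21.98) and 13.12 FPKM (8.29 to 17.96), so that CDK4 exceeded CDK6 by a ratio of 11.4 in MDA-MB-231 and of 14.1 in LM2-4175. The sum of INK4 genes relative to that of CDK4 and CDK6 went from 0.446 in MDA-MB-231 to 0.281 in LM2-4175.

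In 9 lists of genes around the members, written from general knowledge, 79 of 81 genes were tested, 2 were called lower and none was called higher. Over all genes tested, 4.61% were called lower and 4.67% higher. The median log2 change over these genes was -0.10, beside -0.04 over all genes tested. None of the 3 pocket protein genes, the 10 E2F and DP genes, the 3 genes of the CDK-activating kinase, the 5 genes of CDK phosphorylation or the 14 tested genes of the turnover of D-type cyclins and inhibitors was called. Each of these lists is too small for the lack of calls to be told apart from the share over all genes. RB1, the main target of cyclin D kinases, was at 34.03 FPKM (26.26 to 41.81) in MDA-MB-231 and at 29.67 FPKM (22.80 to 36.53) in LM2-4175. The most abundant turnover genes were SKP1, at 696.7 and 477.2 FPKM, and CKS1B, a cofactor of SKP2 in the degradation of p27, at 335.0 and 233.7 FPKM. Both had log2 changes near -0.5 with overlapping bounds (-0.54 for SKP1 and -0.52 for CKS1B).

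Of the other 9 cell cycle CDK and cyclin genes, CCNA1 was called lower and none was called higher. CCNA1, which encodes the cyclin A of germ cells, fell from 8.09 FPKM (5.85 to 10.3) to 2.08 FPKM (1.35 to 2.81). Its log2 change was -1.56, the largest decrease among the genes of the lists. CCNB1, the most abundant gene of this list, was at 277.4 FPKM (211.3 to 343.5) in MDA-MB-231 and at 184.2 FPKM (140.3 to 228.0) in LM2-4175 and was not called. Its log2 change was -0.59, past 1.5-fold, with overlapping bounds. By the fold alone 4 of these 9 genes were past 1.5-fold, all with the smaller FPKM in LM2-4175. Over all genes tested this share was 22.1% in either direction. Among 17 genes of S phase driven by E2F, 15 had a smaller FPKM in LM2-4175, the median log2 change was -0.31, and 1 was called. This was POLA1, the catalytic subunit of DNA polymerase alpha, which fell from 19.10 FPKM (14.49 to 23.71) to 11.22 FPKM (8.57 to 13.88). POLA1 was not called when the cell lines were scaled to the same sum or the same upper quartile, where 13 of the 17 genes had the smaller value in LM2-4175. Over all genes tested, 54.5% had a smaller FPKM in LM2-4175.

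Of 16 tested transcription regulators of the members none was called. This list is too small to be told apart from the 9.27% called over all genes. SMAD4, at 33.00 and 17.47 FPKM, and KLF6, at 63.04 and 41.20 FPKM, were past 1.5-fold with overlapping bounds (log2 changes of -0.88 and -0.60). In all, 10 of the 16 had a larger FPKM in LM2-4175 and 6 a smaller one. MYC, which represses CDKN1A and CDKN2B, was at 63.52 FPKM (48.74 to 78.30) and 72.21 FPKM (55.34 to 89.07).

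**Figure D3:**
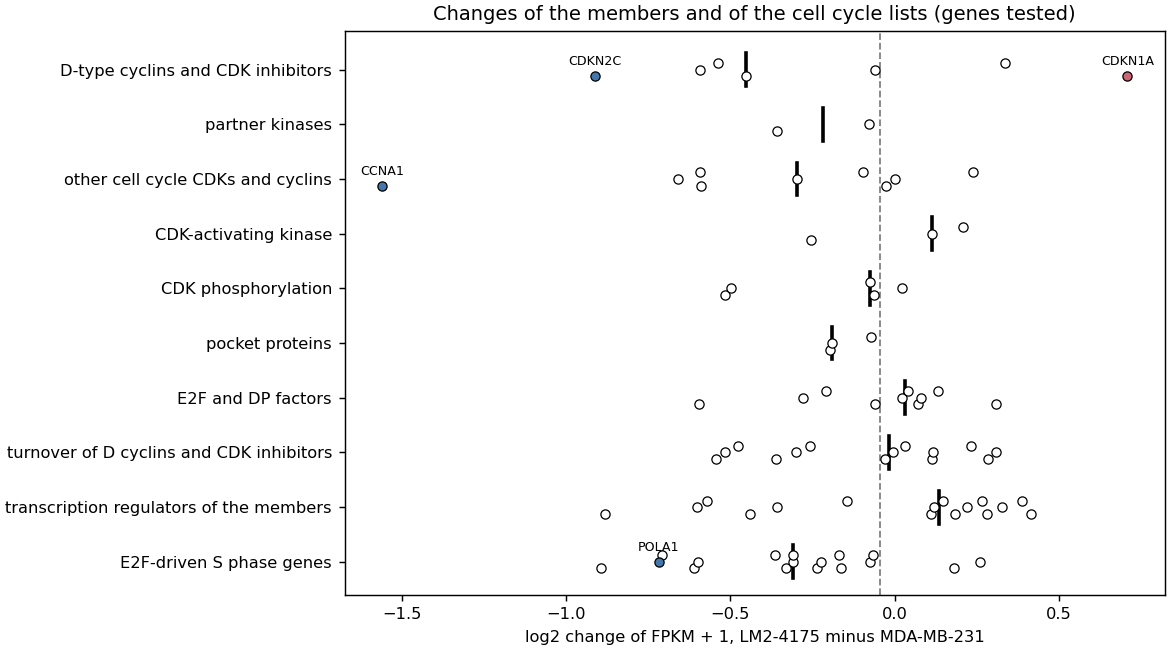
Log2 changes of FPKM + 1, LM2-4175 minus MDA-MB-231, for the tested members (top row) and the tested genes of 9 lists, 1 point per gene. Filled points were called (red higher, blue lower), short bars are medians of a list, and the dashed line is the median over all genes tested (-0.04). CDKN1A lies at 0.71 and CDKN2C at -0.91.

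The genes beside each member were listed to show which of them differed between the cell lines. For comparison with the counts below, 4.67% of all genes tested were called higher and 4.61% lower in LM2-4175, and 54.5% had a smaller FPKM there. CDKN1A and CCND3 lie on chromosome 6 with 5.25 Mb between them. Of 22 tested protein-coding genes within 1 Mb of CDKN1A, 21 had a smaller FPKM in LM2-4175, 4 were called lower and none higher, and the median log2 change was -0.49. CDKN1A was thus called higher among genes most of which had smaller values. STK38, a kinase gene, fell from 75.51 FPKM (57.89 to 93.14) to 37.44 FPKM (28.57 to 46.32), and PIM1, a kinase gene that acts on cell survival, fell from 36.66 FPKM (25.02 to 48.31) to 17.42 FPKM (11.46 to 23.39).

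Around CCND3, 27 of 29 tested genes had a smaller FPKM in LM2-4175, 8 were called lower and none higher, with a median log2 change of -0.63. After scaling to the same sum 26 of the 29 remained smaller and 6 were called lower. The change of CCND3 itself was -0.54, close to this median. FOXP4, a forkhead transcription factor gene, fell from 63.06 FPKM (48.14 to 77.98) to 19.26 FPKM (14.64 to 23.87) and had the largest change among the genes called there. The stretch between CDKN1A and CCND3 held 28 tested genes, which include genes already counted in both windows. Of these 28, 25 had a smaller FPKM in LM2-4175, with a median of -0.51, and 5 were called lower and 2 higher. Over the other 497 tested genes of chromosome 6 the median was -0.13, with 304 smaller, 42 called lower and 28 called higher. These 497 include the genes of both windows that lie outside the stretch. Among those called lower are STK38 and FKBP5 beside CDKN1A, and TRERF1 and KLHDC3 beside CCND3. The smaller values were thus not confined to the stretch. Whether CCND3 moved with this stretch was not tested, as genes of 1 stretch are not independent and the table holds no DNA copy number.

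Of 14 tested genes within 1 Mb of CDKN1C, 10 had a larger FPKM in LM2-4175. SLC22A18 and PHLDA2, imprinted genes of the same cluster as CDKN1C, were both called higher (log2 changes of 1.28 and 0.90). OSBPL5 and CARS were called higher as well (0.90 and 0.82). SLC22A18, a transporter gene, rose from 3.30 FPKM (1.82 to 4.78) to 9.45 FPKM (5.68 to 13.2), and PHLDA2 rose from 44.33 FPKM (33.40 to 55.27) to 83.37 FPKM (63.95 to 102.8). Over these neighbours, 4 were called higher and none lower, with a median of 0.12, where 4.67% and 4.61% of all genes tested were called. CDKN2C had 6 tested neighbours, none called and 5 with a smaller FPKM (3 after either scaling), with a median of -0.13 beside its own change of -0.91. Around CDKN2D, 56 genes were tested, 2 were called higher and 1 lower, and the median was 0.03. For CCND1, CCND2 and CDKN1B, 12, 8 and 13 neighbours were tested, with medians of -0.10, -0.18 and -0.01 and 1, 1 and 2 genes called. These were GAL near CCND1 (lower), EFCAB4B near CCND2 (higher), and EMP1 and KIAA1467 near CDKN1B (both higher).

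**Figure D4:**
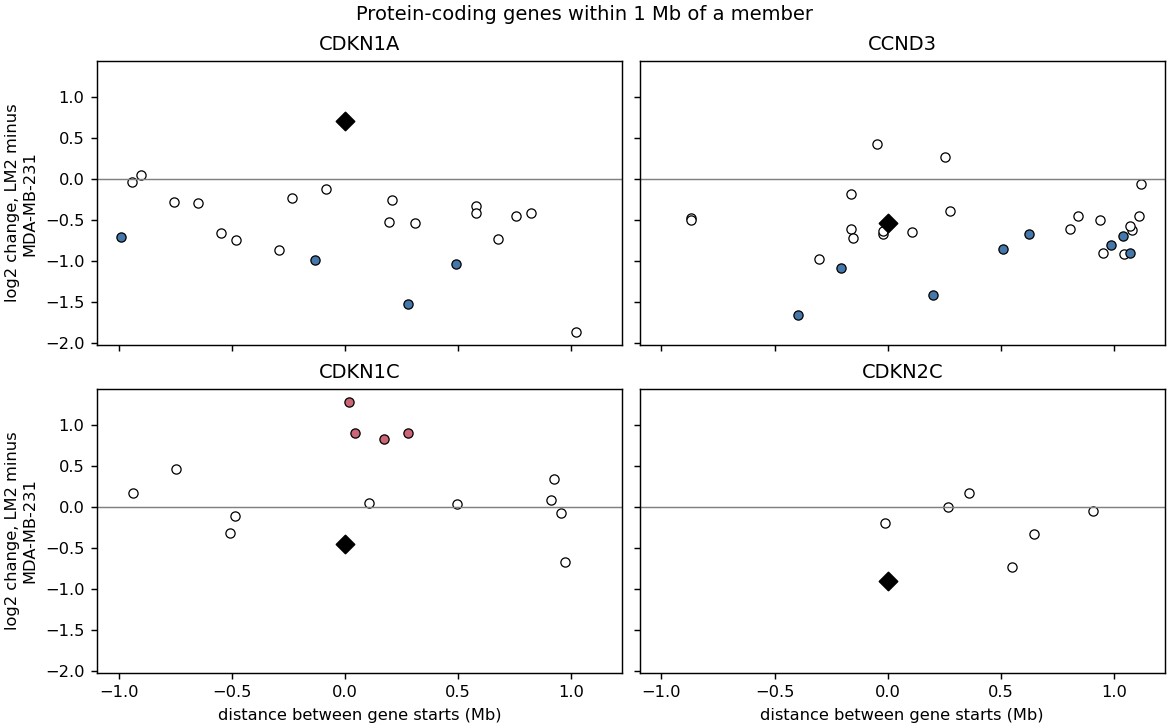
Log2 change of FPKM + 1, LM2-4175 minus MDA-MB-231, against the distance between gene starts along the chromosome in Mb, for tested protein-coding genes whose span lies within 1 Mb of CDKN1A, CCND3, CDKN1C or CDKN2C. Diamonds are the members and filled circles were called (red higher, blue lower). Below 0 lie 21 of 22 neighbours of CDKN1A, which is itself at 0.71, and 27 of 29 neighbours of CCND3.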

How the data were processed

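RNA-Seq of MDA-MB-231 and LM2-4175 was used, with 2 libraries per cell line. Per the study's methods and the submitters' processing notes, the authors sequenced paired reads of 150 bases on the HiSeq, aligned them to hg19 with TopHat 2.0, quantified GENCODE 19 genes with Cufflinks and compared the lines with Cuffdiff. The authors deposited 1 FPKM of each gene in each cell line, with the libraries combined, beside bounds and a quantification status. Library normalization, strand setting and what the bounds cover are not given in the sources used here. Read counts per library were not used here, so precision was read from the bounds: over the genes tested the upper bound exceeded the FPKM by a median of 38.6% in MDA-MB-231 and 38.1% in LM2-4175.

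Tested genes had the status OK for each cell line and averaged at least 0.5 FPKM, 13911 of 57815. Log2 ratios of FPKM + 1 were computed in Python 3.11.15 with NumPy 2.4.6 and pandas 2.3.3 and drawn with Matplotlib 3.10.9. A call needs a change of at least 1.5-fold and bounds that do not overlap, which compares pooled libraries and not replicates. The rule was tested on simulated data. Positions, gene types and exon overlaps on either strand came from GENCODE 44 on GRCh37, where 55535 Ensembl IDs of the table were found. Promoter windows came from RefSeq (GRCh38.p14) and were matched to GRCh37 without mismatches. Where a symbol had several rows with IDs in the annotation (RBL1, CKS1B), the row with the higher mean FPKM was taken. For both symbols this was the protein-coding gene. PECAM1, among the markers, had no row by that symbol. Named are all members, the called genes of each list and at most 5 others of high mean FPKM, up to 5 called neighbours per member, and MTAP, CDKN2B-AS1 and DMRTA1. FOCAD was named after its values were seen, as the only tested neighbour of CDKN2A. SMAD4 was also named after its values were seen, as a regulator past 1.5-fold. Beside the 9 lists given, 1 further list is not reported here. The members and lists were chosen with earlier results of these data known. The alternatives were another fold, pseudocount, filter or scaling and the fold without the bounds.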

Additional observations from a re-analysis of the deposited data

How the results depend on the processing

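The 2 calls among the members (CDKN1A higher, CDKN2C lower) were the same genes with a pseudocount of 0.1, with a mean of at least 1 FPKM, and with both cell lines scaled to the same sum or the same upper quartile. Without the filter on low values CCND2 was added, for 3 calls, and with the fold alone CDKN2D, also for 3. With a threshold of 2-fold 0 members were called, and 853 genes in all, 1 of the pathway lists (CCNA1) and 10 neighbours of members, against 1290, 2 and 23 at 1.5-fold. The lower counts follow from the stricter threshold. With the fold alone, 3074 genes, 12 pathway genes and 49 neighbours were called, since fewer conditions were asked. Scaling to the same sum gave 735 higher and 547 lower genes (57.3% higher, against 50.3%) and moved the median of all genes tested from -0.04 to 0.03. Under both scalings POLA1 was no longer called, which left 1 pathway gene. The sign of CDKN1B changed under both scalings. The order of levels kept 5 overlapping pairs of 9 in each cell line under both scalings. No paired analysis was possible because the table holds 1 value per cell line, and for the same reason no library could be left out. The values rest on 1 pooled estimate per cell line, so none of the differences has a replicate check.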
